A study of Arabidopsis thaliana with 4 samples.

Results

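The glycosyltransferase genes described here are UGT71B1, UGT71C4, UGT71C5, UGT72B3, UGT76E11, UGT76E12, UGT78D1, UGT84A3, UGT85A4 and UGT85A5. They were chosen by symbol and selected on their log2 values on the same 4 arrays, with no stated threshold, so their differences are given as a description. They belong to 6 numbered groups of the UGT family (71, 72, 76, 78, 84 and 85), and each has a single-gene probe set in the platform annotation. They are 10 of 47 genes with a symbol starting with UGT that the annotation names in this way, and of 13350 named genes in all. Family members under other symbols are not in the counts of UGT genes below. Leaves of Arabidopsis thaliana were measured in 4 groups, on 1 Affymetrix ATH1 array each: opr3 plants after systemic wounding, opr3 control plants, wt plants after systemic wounding and wt control plants. At an age of 6 weeks, plants had been kept at 21 °C in days of 10 h light and nights of 14 h. In wounded plants part of the rosette was clamped across the midvein with tweezers, and RNA was taken 2 h later from leaves of the same plants that had been left intact. The opr3 line carries a lesion in OPR3. Its allele, the accession of either line and the number of plants per array were not stated by the labels, and the wounded opr3 sample was placed by its title, since its treatment text names WT plants. With 1 array per group no difference below has a replicate check, and none was tested.

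UGT enzymes move a sugar from a UDP-sugar onto a small molecule, and so change its solubility, storage and activity. Their acceptors in Arabidopsis include flavonols, hydroxycinnamic acids, hormones and foreign compounds, and enzymes of the UGT76E group in Arabidopsis attach glucose to 12-hydroxyjasmonate, an inactivation product of the wound hormone jasmonate. OPR3 reduces the precursor OPDA on the way to jasmonic acid, so the comparison of opr3 with wt asks which wound responses differ when this step is affected.

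The unit is the log2 expression value of a probe set, a group of short oligonucleotides for a transcript, and a difference of 1 is 2-fold. Probe sets were used where the highest of the 4 values reached 4.72, the 40th percentile of all plant probe set values, and 14631 of 22746 plant probe sets did so. All 10 listed genes passed, and 9 of them lay above that level on all 4 arrays. UGT76E12 passed only through its value in wounded wt. Array pairs correlated at Pearson's r between 0.965 and 0.993 across probe sets. The mesophyll genes RCA, LHCB4.1 and PRK lay between 12.21 and 13.57 on all arrays, whereas the root gene PYK10 lay between 3.62 and 3.92. Only 7 of 31 written tissue markers were named on the array, among them FMA of guard cells (6.06 to 6.45), TRY of trichomes (5.21 in wounded opr3 and 6.09 in opr3 control, 5.78 in wounded wt and 6.24 in wt control) and SWEET11 of phloem (9.58, 9.37, 9.86 and 10.45 in the same order of groups). Fewer cells of a type and less RNA per cell cannot be told apart in whole leaves. For bacterial transcripts spiked into the RNA, the 5' value minus the 3' value averaged -1.29 in wounded opr3, -1.27 in opr3 control, -2.0 in wounded wt and -1.16 in wt control (log2, 8 probe set pairs). For plant control transcripts it averaged -0.37 in wounded opr3, -0.52 in opr3 control, -0.63 in wounded wt and -0.4 in wt control (5 pairs). The part of such differences in the values of the wounded wt array was not tested.

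After wounding, 1 listed gene was at least 2-fold higher in opr3 and 1 at least 2-fold lower, whereas 6 were at least 2-fold higher in wt and none lower. Among all 14631 probe sets 4.84% were higher and 1.67% lower by this limit in opr3, and 3.94% and 1.78% in wt. The genes were listed with these values known, and UGT76E12 passed the filter only through wounded wt. Nothing is therefore read from these counts or from the medians below. UGT76E11 alone passed the limit upward in both lines. The median log2 difference of the 10 genes was 0.35 in opr3 and 1.14 in wt, against -0.03 and -0.05 over all probe sets. In both lines 7 genes were above 0, UGT71C4 and UGT85A5 were below 0 in both (UGT71C4 at -0.05 in wt, and at 0.02 there under cyclic loess), and UGT78D1 was below 0 in opr3 and above 0 in wt.

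**Figure D1:**
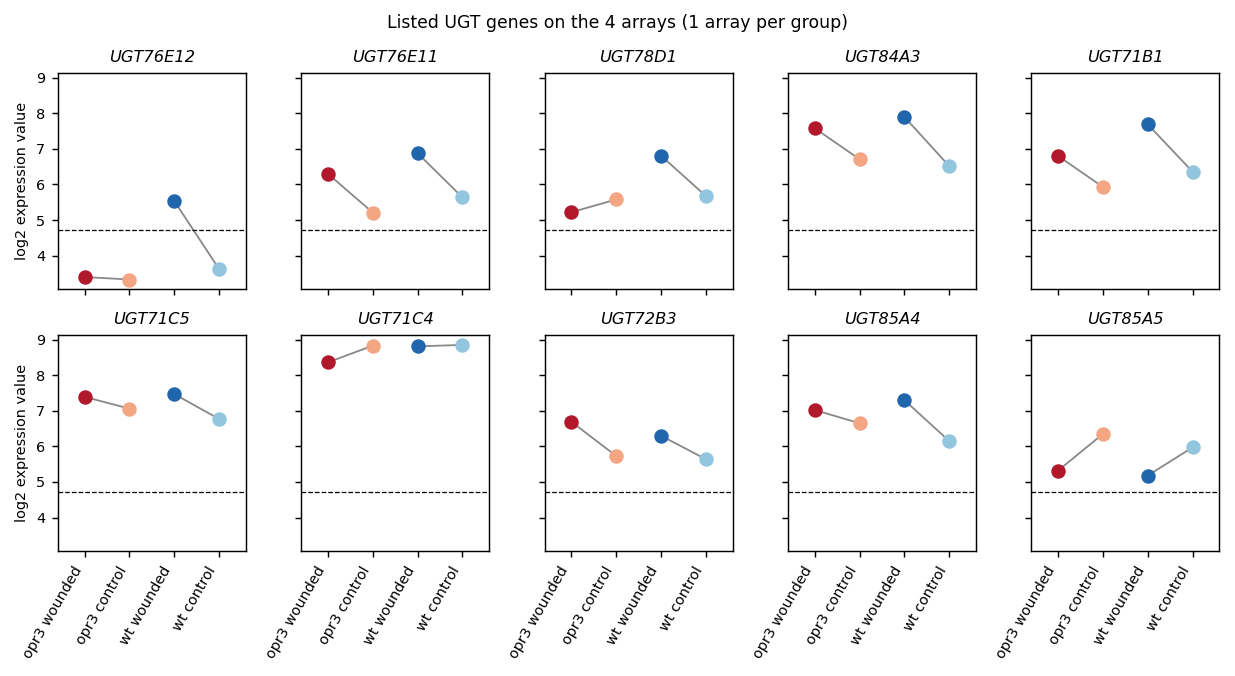
Log2 expression value (vertical axis) of each listed gene on the 4 arrays, with lines joining the wounded and control array of a line and a dashed line at the filter level of 4.72. UGT76E12 lies above the dashed line only in wounded wt, and UGT85A5 lies lower in the wounded array of each line.

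UGT76E12 had the largest wt response of the 10 genes and almost none in opr3. Its log2 value was 3.4 in wounded opr3 and 3.33 in opr3 control leaves, against 5.54 in wounded wt and 3.63 in wt control leaves. The wounded wt array stood apart from the other 3, which all lay under the filter level, near background, so that the folds that follow are approximate. The difference was 0.07 in opr3 and 1.91 in wt (about 3.75-fold). Wounded opr3 minus wounded wt was -2.14 on the log2 scale, about 4.42-fold lower. Because the gene passed the filter only through its high array, its standing among all probe sets is not given.

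UGT76E11, which is separated from UGT76E12 by 1 protein-coding gene, was higher after wounding in both lines by similar amounts. It measured 6.3 in wounded opr3 and 5.21 in opr3 control leaves, against 6.88 in wounded wt and 5.64 in wt control leaves. Within each line the wounded array was above the control array. The gene was 2.13-fold higher in opr3 (log2 1.09) and 2.38-fold higher in wt (log2 1.25). The log2 difference of opr3 from wt was -0.58 in wounded plants and -0.42 in control plants. The difference of the responses, opr3 minus wt, was -0.16 for UGT76E11 and -1.84 for UGT76E12. Whether the probes of this pair also bind transcripts of the other gene was not tested.

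The same UGT group holds UGT76E1, the main enzyme known to glucosylate 12-hydroxyjasmonate in wounded Arabidopsis leaves, and its neighbour UGT76E2. Both were singled out after their values were seen, and both lay under the filter level on all arrays. UGT76E1 was at 3.98 in wounded opr3 and 3.83 in opr3 control, against 4.51 in wounded wt and 3.77 in wt control. UGT76E2 was at 4.19 in wounded opr3 and 4.05 in opr3 control, against 4.68 in wounded wt and 4.05 in wt control. In each of them wounded wt held the highest of the 4 values, as it did for UGT76E11 and UGT76E12. UGT76C2 of group 76, above the filter level on all arrays, also held its highest value in wounded wt, at 8.17. It was at 7.77 in wounded opr3, 7.63 in opr3 control and 7.68 in wt control. Some other genes of group 76 held theirs on other arrays. Among them were UGT76C1 (6.88 in wt control) and UGT76B1 (4.42 in wounded opr3, under the filter level). The share of all probe sets highest in wounded wt was not counted.

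UGT78D1, which transfers rhamnose to the 3 position of flavonols, differed in direction between the lines. It measured 5.22 in wounded opr3 and 5.58 in opr3 control leaves, against 6.81 in wounded wt and 5.68 in wt control leaves. Wounded wt again stood above the other 3 arrays, and opr3 control minus wt control was -0.10. Its log2 difference after wounding was -0.37 in opr3 and 1.13 in wt, where it was 2.18-fold higher. After wounding it was 3.02-fold lower in opr3 than in wt, and 119 probe sets had a lower value of this difference.

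Few other genes of flavonol and anthocyanin synthesis could be looked up by name. The annotation named 5 of the 17 written, and 2 of them passed the filter. UGT78D2, the flavonoid 3-O-glucosyltransferase, was at 6.5 in wounded opr3 and 6.73 in opr3 control, against 6.96 in wounded wt and 6.78 in wt control. Its differences of -0.22 in opr3 and 0.17 in wt have the signs of those of UGT78D1 at a smaller size. DFR, dihydroflavonol reductase, differed by -0.19 in opr3 and 0.11 in wt, with values between 4.59 and 4.79. Neither gene passed the limit in any comparison. The chalcone synthase, chalcone isomerase and flavonol synthase genes had no single-gene probe set in the annotation and were not analysed here.

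UGT84A3, which makes glucose esters of sinapate and other hydroxycinnamates, was higher after wounding in both lines. It measured 7.58 in wounded opr3 and 6.71 in opr3 control leaves, against 7.9 in wounded wt and 6.52 in wt control leaves. The gene was 1.83-fold higher in opr3 (log2 0.87, under the limit) and 2.6-fold higher in wt (log2 1.38), each from 1 wounded and 1 control array. The responses differed by -0.51, and opr3 minus wt was -0.32 in wounded and 0.19 in control plants.

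Of 22 written genes of phenylpropanoid and sinapate synthesis, the annotation named 3, and these passed the filter. CCR2, a cinnamoyl-CoA reductase, was at least 2-fold higher after wounding in each line, at 4.83 in wounded opr3 and 3.8 in opr3 control against 5.32 in wounded wt and 3.78 in wt control. Its control values lay near background, and its opr3 difference of 1.03 fell under the limit when arrays were centred on their medians. HCT, a hydroxycinnamoyl transferase of lignin synthesis, differed by 0.91 in opr3 and 0.39 in wt. ALDH2C4, which oxidises sinapaldehyde to sinapate, differed by -0.15 in opr3 and -0.39 in wt. The 3 genes had a median of 0.91 in opr3 and 0.39 in wt.

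The 3 listed UGT71 genes had different patterns. UGT71B1 measured 6.8 in wounded opr3 and 5.93 in opr3 control leaves, against 7.69 in wounded wt and 6.36 in wt control leaves. The gene was 1.82-fold higher in opr3 (log2 0.87) and 2.51-fold higher in wt (log2 1.33), and opr3 minus wt was -0.89 in wounded and -0.43 in control plants. The offset between the lines was thus present before wounding and was larger after it. In wounded plants 292 probe sets had a lower opr3 minus wt difference than UGT71B1.

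UGT71C5, which glucosylates the hormone abscisic acid, measured 7.39 in wounded opr3 and 7.06 in opr3 control leaves, against 7.47 in wounded wt and 6.77 in wt control leaves. It was 1.25-fold higher after wounding in opr3 and 1.62-fold higher in wt, and neither difference reached 2-fold. Between the lines, opr3 minus wt was -0.08 in wounded and 0.29 in control plants, so the smaller opr3 difference goes with a higher opr3 control value. BGLU33, a beta-glucosidase, was the only gene that the annotation named of 13 written for abscisic acid synthesis and breakdown. It was at 7.52 in wounded opr3 and 7.55 in opr3 control, against 7.19 in wounded wt and 7.83 in wt control.

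UGT71C4, the protein-coding gene next to UGT71C5, had the wt response closest to 0 of the 10. It measured 8.36 in wounded opr3 and 8.83 in opr3 control leaves, against 8.81 in wounded wt and 8.85 in wt control leaves. The wounded opr3 array was the low one, and the other 3 lay between 8.81 and 8.85. Its log2 difference was -0.48 in opr3 and -0.05 in wt.

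UGT72B3 was the only listed gene whose difference of the responses, opr3 minus wt, was above 0. It measured 6.69 in wounded opr3 and 5.73 in opr3 control leaves, against 6.3 in wounded wt and 5.64 in wt control leaves. Wounded arrays lay above control arrays in both lines. The gene was 1.94-fold higher in opr3 (log2 0.96) and 1.58-fold higher in wt (log2 0.66), both under the limit. Levels in opr3 were above those in wt by 0.39 in wounded and by 0.09 in control plants.

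In the UGT85A genes the direction differed. UGT85A4 measured 7.02 in wounded opr3 and 6.65 in opr3 control leaves, against 7.3 in wounded wt and 6.15 in wt control leaves. It was 1.29-fold higher after wounding in opr3 and 2.22-fold higher in wt. Before wounding opr3 lay 0.50 above wt, the largest control difference of the 10 genes in size, and 316 of 14631 probe sets had a larger one. After wounding opr3 minus wt was -0.28.

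UGT85A5 was the only listed gene at least 2-fold lower after wounding in opr3, and it was also lower in wt. It measured 5.32 in wounded opr3 and 6.35 in opr3 control leaves, against 5.18 in wounded wt and 5.97 in wt control leaves. The gene was 2.04-fold lower in opr3 (log2 -1.03) and 1.74-fold lower in wt (log2 -0.80), each from 1 wounded and 1 control array. In opr3 221 and in wt 569 probe sets had lower differences. In opr3 it lay above wt by 0.14 in wounded and by 0.37 in control plants.

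**Figure D2:**
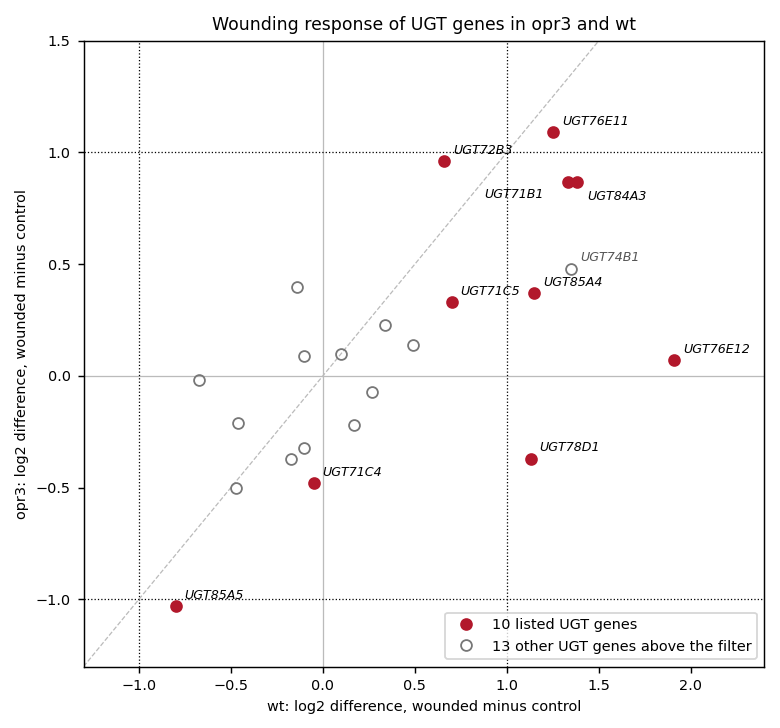
Log2 difference between wounded and control plants in opr3 (vertical axis) and wt (horizontal axis) for the 10 listed UGT genes (filled) and 13 other UGT genes above the filter (open), with dotted lines at 2-fold and a dashed line of equal response. UGT76E12 and UGT78D1 lie farthest below the dashed line, at -1.84 and -1.5 (opr3 minus wt), and UGT72B3 is the listed gene above it.

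Set side by side, the responses ran from -1.03 (UGT85A5) to 1.09 (UGT76E11) in opr3 and from -0.80 (UGT85A5) to 1.91 (UGT76E12) in wt. The opr3 response was the lower of the pair for 9 of 10 genes, with UGT72B3 at 0.30 as the exception. It was the lower for 8 of the 13 other UGT genes above the filter as well, and the median difference of the responses was -0.44 for the listed genes, -0.11 for the 13 others and 0.03 over all probe sets. For UGT71C4 and UGT85A5 that means a larger decrease in opr3. UGT76E12 and UGT78D1 passed the limit for the difference of the responses, at -1.84 (about 3.57-fold) and -1.5 (2.82-fold). UGT76E12 was nearly level in opr3, and UGT78D1 lay lower after wounding in opr3 and higher in wt. The share of all probe sets past this limit was 1.32% downward and 2.06% upward. Of all probe sets, 88 had a lower difference of the responses than UGT78D1. UGT85A4 followed at -0.78, and the remaining 7 genes lay between -0.51 and 0.30. The difference of the responses combines 4 single arrays. The share of all probe sets with the lower response in opr3 was not counted. The genes were listed with these values known, and UGT76E12 passed the filter only through wounded wt. Nothing is therefore read from these counts, shares or medians.

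**Figure D3:**
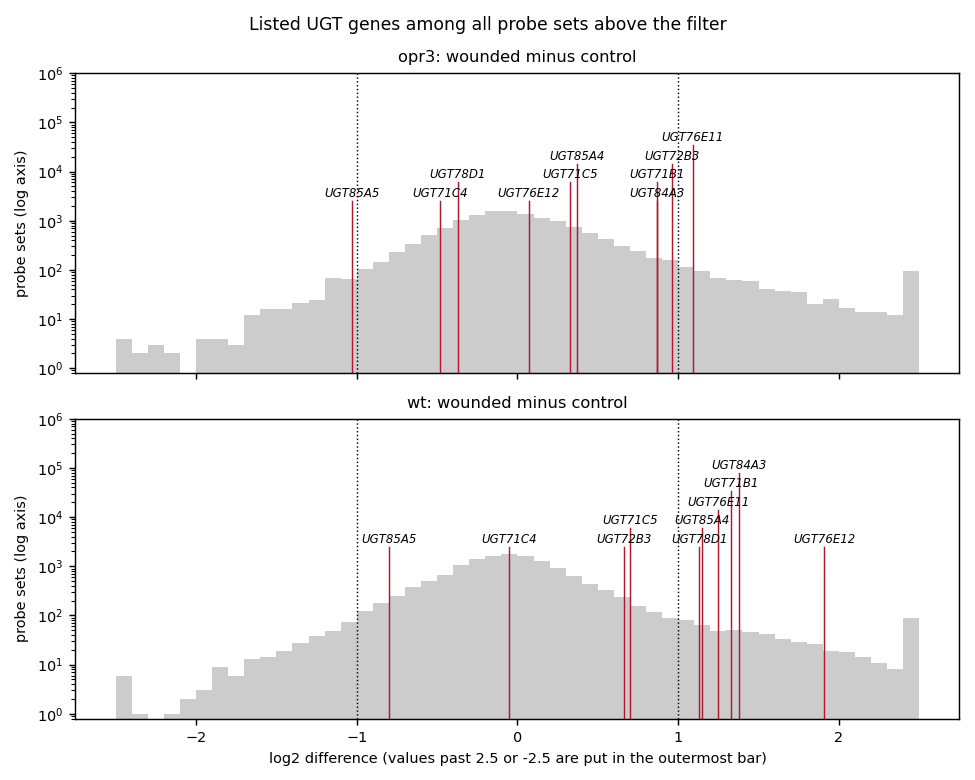
Number of probe sets above the filter (vertical axes, log scale) by their log2 difference between wounded and control plants in opr3 (upper panel) and wt (lower panel), with a red line at each listed UGT gene and dotted lines at 2-fold. In wt 6 lines lie past the right dotted line, and in opr3 only that of UGT76E11. UGT76E12 passed the filter only through its wounded wt array, so nothing is read from the place of its line.

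In control plants none of the 10 genes differed 2-fold between opr3 and wt, where 0.417% of all probe sets were higher and 0.574% lower in opr3. Their differences ran from -0.43 (UGT71B1) to 0.50 (UGT85A4), 5 above and 5 below 0. UGT71C4, at -0.02, was slightly above 0 under each of the 3 other scalings. In wounded plants none was 2-fold higher in opr3 and 2 were lower, UGT76E12 and UGT78D1, against 1.33% and 1.65% of all probe sets. The opr3 value was below that of wt for 8 of 10 genes after wounding, and above it for UGT72B3 and UGT85A5. The median difference was -0.38 in wounded and 0.03 in control plants, against 0.00 and -0.04 over all probe sets. Shares of all probe sets by sign were not counted. The genes were listed with these values known, and UGT76E12 passed the filter only through wounded wt. Nothing is therefore read from these counts or medians. The wounding responses and the opr3 minus wt differences are computed from the same 4 arrays and do not support each other.

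In the order of protein-coding genes of assembly TAIR10.1, 7 of the 10 genes lie in 5 runs of neighbouring UGT genes. Runs were counted with at most 2 other protein-coding genes between members, and genes of other kinds were not considered. Only genes with a symbol starting with UGT were sought, so family members under other symbols count as other genes here. By that rule UGT72B3, UGT78D1 and UGT85A4 have no such neighbour. On chromosome 4, UGT84A3 stands between UGT84A1 and UGT84A4 with no other protein-coding gene between them. UGT84A4 measured 5.25 in wounded opr3 and 5.27 in opr3 control, against 4.69 in wounded wt and 5.36 in wt control, a wt difference of -0.67 where UGT84A3 had 1.38. UGT84A1 lay under the filter level on all arrays.

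On chromosome 1, UGT85A5 stands between UGT85A2 and UGT85A3. UGT85A2 and UGT85A7 of the same run differed by -0.07 and 0.23 after wounding in opr3 and by 0.27 and 0.34 in wt, where UGT85A5 had -1.03 and -0.80. UGT85A3 lay under the filter level, and UGT85A1 was not analysed here. On chromosome 3, UGT71B6 and UGT71B8 near UGT71B1 lay under the filter level throughout, with UGT71B6, an abscisic acid glucosyltransferase, between 4.22 and 4.67. UGT71C3, next to UGT71C4, also lay under it.

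**Figure D4:**
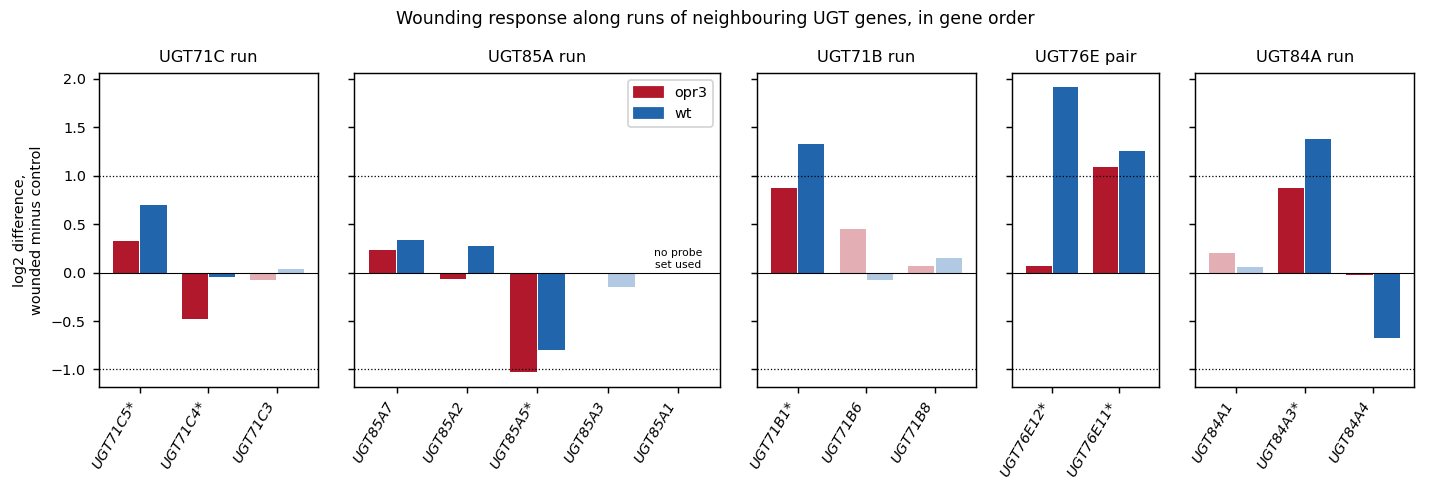
Log2 difference between wounded and control plants (vertical axis) in opr3 (red, left bar) and wt (blue, right bar) for UGT genes in each run of neighbours, in gene order, with listed genes starred, pale bars for genes under the filter level and dotted lines at 2-fold. UGT76E12 and UGT76E11 differ in opr3 (0.07 and 1.09), and UGT84A3 and UGT84A4 differ in wt (1.38 and -0.67). The wounded wt value of UGT84A4 and both opr3 values of UGT76E12 lie under the filter level.

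Among the other 37 named genes with a symbol starting with UGT, 13 passed the filter and 24 lay under it on all arrays. UF3GT (UGT79B1) and AT4G14090 (UGT75C1) carry other symbols and were not counted. The 13 are what remained once the 10 genes had been listed with these values known. Nothing is therefore read from their medians or counts. Their median wounding difference was -0.02 in opr3 and -0.10 in wt, against -0.03 and -0.05 over all probe sets. Array-wide shares past the 2-fold limit were 4.84% up and 1.67% down in opr3, and 3.94% up and 1.78% down in wt. None of the 13 was at least 2-fold changed after wounding in opr3, and 1 was in wt. That gene was UGT74B1, which glucosylates thiohydroximates in glucosinolate synthesis, at 7.88 in wounded opr3 and 7.4 in opr3 control against 9.31 in wounded wt and 7.96 in wt control. Its response was 0.48 in opr3 and 1.35 in wt, and after wounding it was 2.69-fold lower in opr3 than in wt.

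Genes of other fates of small molecules were few on the annotated array. Of 35 written detoxification genes 10 were named on the array, and 6 of these, among them AT2G04050 and AT2G04070, lay under the filter level on all arrays. The 4 that passed were glutathione transferases of the tau class, and none was 2-fold changed by wounding in either line. GSTU20 measured 8.74 in wounded opr3 and 8.39 in opr3 control, against 9.78 in wounded wt and 8.9 in wt control. It was 2.05-fold lower in opr3 than in wt after wounding. GSTU27 was 1.55-fold lower after wounding in opr3 and 1.95-fold lower in wt. GSTU18 was 1.53-fold lower after wounding in opr3 and 1.4-fold lower in wt, and GSTU16 differed by -0.19 in opr3 and 0.13 in wt. USP, a UDP-sugar pyrophosphorylase, was the only gene that the annotation named of 20 written for UDP-sugar supply. It differed by 0.10 in opr3 and 0.27 in wt.

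Likeness of profile was measured over the 4 arrays as the root mean square difference of centred log2 values. It was sought among 839 named genes with a range of at least 1 and a symbol not starting with UGT. Nearest to UGT76E12 were JAL34, a jacalin-related lectin gene (0.08), AT4G29700 (0.09) and AT1G06640 (0.11). Like UGT76E12, AT4G29700 lay above the filter level only in wounded wt, at 5.56. It was at 3.44 in wounded opr3, 3.48 in opr3 control and 3.89 in wt control. The likeness of this pair thus rests on 1 raised array and values near background. JAL34 measured 5.41 in wounded opr3 and 5.55 in opr3 control, against 7.67 in wounded wt and 5.7 in wt control. Nearest to UGT76E11 were AT1G72500 (0.03), AT4G19390 (0.05) and AT1G68620 (0.07), whose differences lay between 1.06 and 1.14 in opr3 and between 1.17 and 1.25 in wt. Nearest to UGT85A4 were AT1G53440 (0.05), AT1G21550 (0.1) and XTH18, a xyloglucan endotransglucosylase gene (0.13). With 4 arrays many genes have like profiles, and the values describe these arrays only.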

How the data were processed

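RNA of 4 groups was hybridised to 1 ATH1 array each. The deposited table holds 1 log2 value for each probe set and array, which the authors obtained through RMA and Partek, per the submitters' processing notes, which give no version. The log2 scale was inferred from the range and the near-equal column means (5.8954 to 5.8956). The probe set annotation and genome build behind them are not given in the sources used here. RMA draws low values together, so folds near background are understated.

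Of 22810 probe sets, 64 array controls were left out of counts. The platform annotation named 1 gene for 13513 probe sets (13436 matched to the gene table of TAIR10.1) and several for 503. A further 8730 plant probe sets are unnamed here. Gene order (protein-coding genes only) and chromosomes came from that gene table, and no sequences were used. Differences were computed with Python 3.11.15 and alternatives with limma 3.58.1 in R 4.3.3. The step that makes the calls was tested on simulated data with known changes, which says nothing about the single differences. Precision is limited by 1 array per group, so there is no p-value.

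The members and lists were chosen with earlier results of these data known. Named genes are the 10 members, other UGT genes past the filter and 2-fold in any comparison, up to 4 measured genes per list, and the 3 most similar profiles of the member with the largest difference in each wounding response and in control plants. UGT76E1, UGT76E2, UGT76B1, UGT76C1, UGT76C2 and the neighbours of members were added after their values were seen.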

Additional observations from a re-analysis of the deposited data

Results flagged for a closer look

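For 4 genes the same contrast ran in opposite directions in different groups, each on single arrays, and the difference was not tested. UGT78D1 differed after wounding by -0.37 in opr3 and by 1.13 in wt, a difference of -1.5. For UGT85A4, opr3 minus wt was -0.28 in wounded and 0.50 in control plants, a difference of -0.78. For UGT84A3 it was -0.32 in wounded and 0.19 in control plants, a difference of -0.51. For UGT71C5 it was -0.08 in wounded and 0.29 in control plants, a difference of -0.37.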

How the results depend on the processing

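No paired analysis was possible because each group has 1 array, and for the same reason no array could be left out. Median centring, quantile normalization and cyclic loess moved no listed gene's difference by over 0.11 (log2) and changed no count of listed genes or of all UGT genes past the 2-fold limit. The sign of UGT71C4, close to 0, did change: opr3 minus wt in control plants was -0.02 and became 0.02, 0.03 and 0.01 under these scalings, and its wt response of -0.05 became 0.02 under cyclic loess. Median centring took CCR2 under the limit in opr3, leaving 0 phenylpropanoid genes higher where there was 1. UGT85A5 lay at the limit in opr3, between -1.11 and -1.0 over these scalings. Using only _at probe sets changed none of the counts past the limit, nor did counting every probe set, which was run for all UGT genes only.

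Without the filter, 2 UGT genes in place of 1 were higher after wounding in opr3. At the 60th percentile (6.14) UGT76E12 dropped out, so 5 listed genes in place of 6 were higher after wounding in wt. Of all UGT genes 6 in place of 7 were. Only 1 listed gene was then lower in wounded opr3 than in wounded wt, with 2 of all UGT genes in place of 3. In the difference of the responses 1 listed gene was lower (also 1 of all UGT genes). No phenylpropanoid gene was higher in either line (0).

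The fold limit changed more counts. Shares of all probe sets were counted only at the main filter and the 2-fold limit. The genes were listed with these values known, so nothing is read from the counts at other settings. At 1.5-fold, 4 listed genes were higher after wounding in opr3, and in wt 8 were higher and 1 lower. In wounded opr3 against wounded wt 3 listed genes were lower, and 3 were lower in the difference of the responses. Of all UGT genes 4 were higher in opr3, and in wt 9 were higher and 2 lower. In wounded opr3 against wounded wt 4 were lower, and in the difference of the responses 1 was higher and 4 lower. Phenylpropanoid genes numbered 2 higher in opr3, and detoxification genes 1 higher and 1 lower in wt and 2 lower in opr3. At 3-fold, 1 listed gene and 1 of all UGT genes were higher in wt, 0 higher and 0 lower in opr3, and 1 lower in the difference of the responses, with 0 phenylpropanoid genes higher in either line. Of all UGT genes 2 in place of 3 were lower in wounded opr3 than in wounded wt.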

Other observations

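UGT76B1, which glucosylates isoleucic acid and the defence signals salicylate and N-hydroxypipecolate in Arabidopsis, lay under the filter level on all arrays and was singled out after its values were seen. It was at 4.42 in wounded opr3 and 3.27 in opr3 control, against 3.94 in wounded wt and 3.7 in wt control. Its difference after wounding was 1.15 in opr3 (about 2.22-fold) and 0.25 in wt, near background in all 4 arrays.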
